A study of Mus musculus with 6 samples.

Results

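The genes described here build, cut, anchor or ride on actin filaments in the oocyte. They are the nucleators Fmn2, Spire1, Spire2 and Daam1, the actin-related proteins Actr2 and Actr3, the severing protein Cfl1, the membrane linkers Ezr and Msn, and the mitochondrial myosin Myo19. The genes were listed with earlier results of these data known. A listed gene was included if a probe set of the array was assigned to that gene alone by the platform annotation. Of the 10 genes listed, 9 had such a probe set, 1 each, among the 19938 genes named on the array. Actr2 was named by no probe set of this kind and has no value here.

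An oocyte divides very unequally, and actin places the division. The formin Fmn2 and the Spire proteins start the filaments of a loose mesh that fills the cytoplasm, and this mesh carries the meiotic spindle to the cell edge before the first polar body is extruded. At the cortex the Arp2/3 complex, whose core is Actr2 and Actr3, makes branched filaments that help to keep the spindle there, cofilin (Cfl1) cuts old filaments, and ezrin (Ezr) and moesin (Msn) tie filaments to the plasma membrane. Myo19 is a myosin on the outer mitochondrial membrane that moves mitochondria along actin.

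Expression was measured in fully-grown oocytes of mice in the mixed strain background C57BL/6J;C3HeB/FeJ. The wild-type group was Marf1+/+ and the mutant group was Marf1 ENU/ENU, homozygous for a mutation induced with the mutagen ENU in Marf1, a gene whose loss leaves oocytes arrested. Females of both genotypes received 5 IU of eCG, a gonadotropin that drives follicle growth, at 21 days of age, and their oocytes were collected 46 hours later, at 23 days, and stripped of cumulus cells. The labels describe these oocytes as transcriptionally silent. Each group had 3 samples, with 1 array for each. The labels do not say how many oocytes or females a sample pooled, so the p-values rest on a spread that may be only technical.

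Values are log2 expression on a scale common to the 6 arrays, and every difference is given as mutant minus wild type. Array medians ran from 4.56 to 4.76 and SDs over probe sets from 2.04 to 2.20, with mutant replicate 3 at the highest median and the lowest SD. That array also stood apart in that its correlation with the other mutant arrays was 0.970 to 0.973, against at least 0.984 among the wild-type arrays and 0.985 between the other mutant arrays. Marf1 itself was 8.26-fold lower in the mutant (limma adjusted p = 1.0e-04). All 14 oocyte markers lay well above a level of 4.53, the 95th percentile of olfactory and vomeronasal receptor genes, used here as a mark of dim signal, and 1 of them, Kit, fell. Of 17 measured cumulus and granulosa markers, 8 lay below that level and 2 rose, Nr5a2 and Kitl. The summed linear signal of that list was 768 to 827 on the wild-type arrays and 1444 to 1780 on the mutant arrays, and array values have no true zero. Without Nr5a2 (8.71 to 10.17 in log2 means) and Kitl (3.72 to 5.66), the sum over the other 15 was 339 to 390 in wild type and 325 to 400 in the mutant. Of 11 theca and stroma markers, 7 lay below 4.53 and 1 rose (Pdgfra), with sums of 214 to 247 and 215 to 256. Of 10 blood, immune and endothelial markers, 5 lay below 4.53 and 1 fell (Pecam1), with sums of 329 to 356 and 267 to 312. Without Pecam1 the sum over the other 9 was 174 to 207 in wild type and 189 to 223 in the mutant. The part of other cells in the differences between genotypes was not tested.

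Of the 9 measured genes, 2 fell in the mutant, Myo19 strongly and Fmn2 moderately, 0 rose and 7 did not pass the threshold (limma adjusted p under 0.05 over all probe sets). Over the whole array 7.78% of probe sets and 10.4% of genes passed, 4.04% of genes as lower and 6.4% as higher. At an unadjusted p under 0.05 Spire1 joined the lower genes, 3 of 9 in all and 0 higher, where 13.5% of all genes were lower and 11% higher by the same rule. All 3 mutant values lay below all 3 wild-type values for the same 3 genes, Fmn2, Spire1 and Myo19, and above them for 0, where 17.7% of all genes lay below and 12.9% above. With so few genes these shares describe the set and do not set it apart. The median log2 difference was -0.07 for the 9 genes and -0.04 for all genes.

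**Figure D1:**
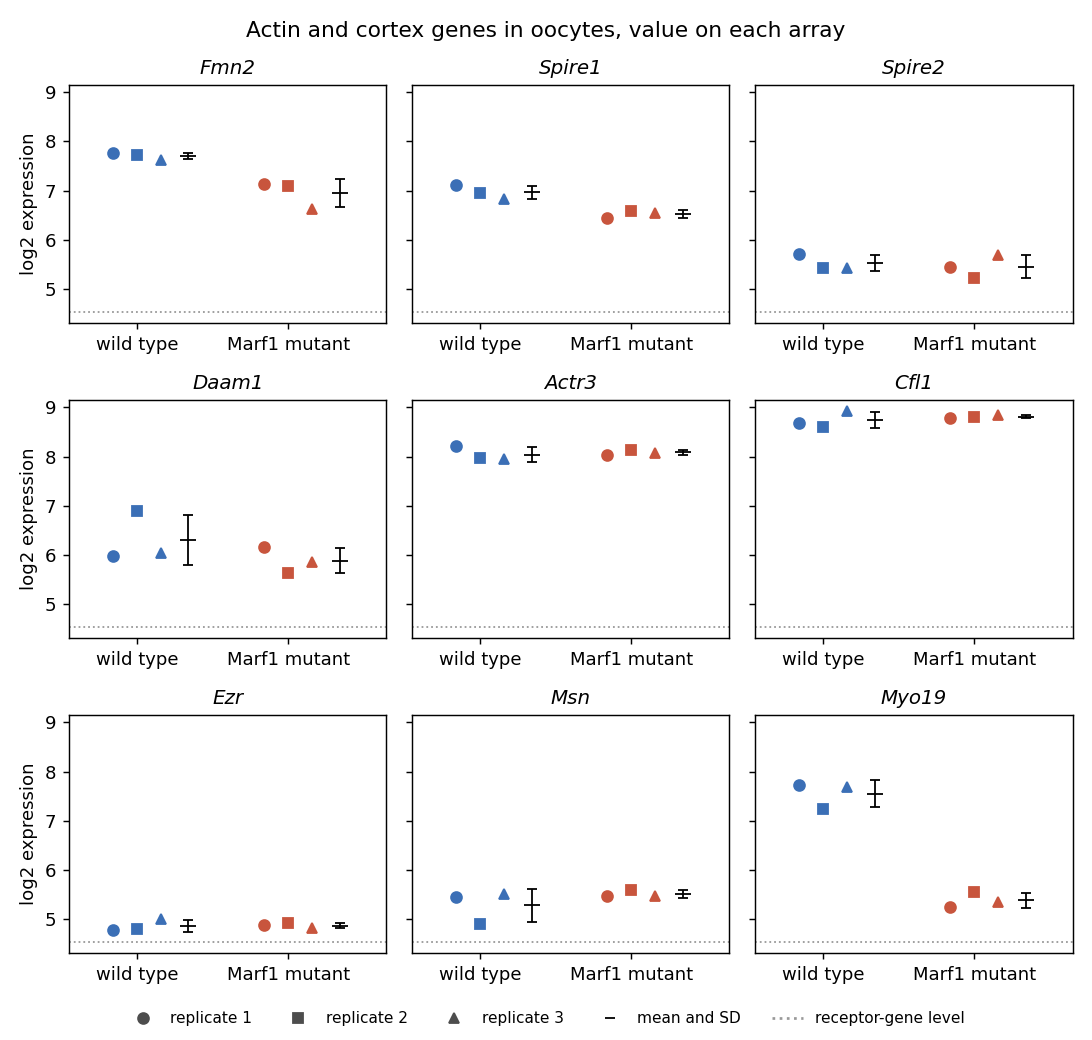
Log2 expression of the 9 measured actin and cortex genes on each of the 6 arrays (symbols: replicates; black bars: mean and SD of 3 arrays; dotted line: the receptor-gene level of 4.53). The mutant values of Myo19, Fmn2 and Spire1 sit below all of their wild-type values, and the other 6 genes overlap between genotypes.

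Myo19 had the largest difference of the set. Its values (probe set 10379840) were 7.72, 7.24 and 7.69 on the wild-type arrays and 5.25, 5.55 and 5.34 on the mutant arrays, in order of replicate number. The groups were separated by 1.69, more than the spread within either genotype. The mean went from 7.55 ± 0.27 to 5.38 ± 0.15 (SD, n = 3 each), a log2 difference of -2.17 (SE 0.18, limma adjusted p = 0.000466), or 4.50-fold lower. Of all 19938 genes, 9 had a larger estimated fall. Myo19 passed in each of the 6 fits that left out 1 array, at log2 differences of -2.33 to -2.09 and adjusted p of 0.0014 to 0.00407. A lower share of oocytes holding the transcript and less of it in each oocyte cannot be told apart in such samples.

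The genes on either side of Myo19 in the RefSeq order went the other way. Pigw, an enzyme of GPI anchor synthesis, starts next to Myo19 on the opposite strand, and the 250 bases before the Myo19 start lie inside the annotated Pigw gene, so none of them is printed. Its values were 5.29, 5.25 and 5.19 in wild type and 6.27, 6.73 and 5.78 in the mutant (log2 difference 1.02, SE 0.23, limma adjusted p = 0.0402). Pigw lost the call in 5 of the 6 fits that left out 1 array (adjusted p up to 0.135). Znhit3, a zinc-finger gene at the other end, was at 4.89, 5.95 and 5.04 in wild type and 7.20, 7.70 and 7.19 in the mutant (2.07, SE 0.30, adjusted p = 0.00565) and passed in all 6 fits. All 3 mutant values of both neighbours lay above all of their wild-type values, while those of Myo19 lay below. The annotated ends of Myo19 overlap both genes in RefSeq, and the part of each transcript that the probe sets read is unknown here. These neighbours were examined after values had been seen. None of the 9 genes lies on the chromosome of Marf1, and of the 36 measured genes nearest to them, up to 2 on each side, 6 passed the threshold, where 10.4% of all genes did.

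Of 12 genes listed for mitochondrial transport, not all of them tied to Myo19, 11 were measured. In this list 2 rose and 1 fell, where 6.4% of all genes rose and 4.04% fell. Trak2, an adaptor between mitochondria and microtubule motors, rose from 6.01 ± 0.07 to 7.59 ± 0.28 (log2 difference 1.58, SE 0.17, adjusted p = 0.00165), while its paralog Trak1 fell from 6.65 ± 0.13 to 5.84 ± 0.25 (-0.82, adjusted p = 0.0271). Trak2 passed in all 6 fits without 1 array and Trak1 in 1 of them. The outer membrane protein Mtx3 rose by 0.88 (adjusted p = 0.0414), from a wild-type mean of 4.28 that lay below the receptor-gene level, and passed in 1 of the 6. Rhot1, a mitochondrial GTPase that binds Myo19, had a log2 difference of -0.34 (SE 0.13, adjusted p = 0.197).

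Fmn2 was the nucleator that fell. Its values (probe set 10351971) were 7.76, 7.72 and 7.63 on the wild-type arrays and 7.14, 7.09 and 6.63 on the mutant arrays. The groups did not overlap, and mutant replicate 3 was the lowest array. The mean went from 7.70 ± 0.07 to 6.95 ± 0.28, a log2 difference of -0.75 (SE 0.17, limma adjusted p = 0.0397), or 1.68-fold lower. The call was close to the threshold: it held without mutant replicate 3 (log2 difference -0.59, adjusted p = 0.0417), when 3.09% of all genes passed as lower, and was lost without each of the other 5 arrays in turn (adjusted p of 0.0621 to 0.138). It was also lost when each array was centred on its median (adjusted p = 0.0917), with the direction the same throughout.

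The bases upstream of Fmn2 are shown because Fmn2 was the one nucleator of the set that fell and no other annotated gene covers them. They are the 177 bases that end where the annotated gene begins, chr1:174501575-174501751 of GRCm38.p6, plus strand, from RefSeq, with matches to any of 4 promoter motifs in capitals.
Fmn2: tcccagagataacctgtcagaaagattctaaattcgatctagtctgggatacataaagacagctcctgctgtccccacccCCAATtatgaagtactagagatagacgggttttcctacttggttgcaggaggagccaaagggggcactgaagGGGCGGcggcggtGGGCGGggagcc
The motif CCAAT, searched on both strands as were the others, had 1 match in this window, and 24.4% of the 32851 RefSeq promoters hold it in a window of this length. The GC box, GGGCGG, had 2 matches, and 20.6% of promoters hold it. The TATA motif, TATAAA, had 0 matches (8.26% of promoters), as had the E-box, CANNTG (54.9%). For every promoter these shares cover the first 177 of the 250 bases before its start, so the bases closest to the start were left out. Over all 250 bases the shares were 33.9% for CCAAT, 32.7% for the GC box, 12.4% for TATA and 66.2% for the E-box. The matches do not overlap, the GC content was 53.7%, and the window held 6 CpG dinucleotides. A match is a description of the letters and not evidence of a bound factor.

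Spire1 and Spire2 encode nucleators that cooperate with Fmn2 in starting filaments. Spire1 was at 7.11, 6.95 and 6.84 in wild type and 6.44, 6.59 and 6.54 in the mutant, so every mutant array was lower than every wild-type array, by a gap of 0.25. Its log2 difference was -0.44 (95% interval -0.77 to -0.12, limma adjusted p = 0.112), and it passed the threshold in 0 of the 14 alternative fits. Spire2 was at 5.72, 5.43 and 5.43 in wild type and 5.45, 5.22 and 5.70 in the mutant. Its groups overlapped, with a log2 difference of -0.07 (95% interval -0.47 to 0.33, adjusted p = 0.898). The difference between the Spire genes in their response was not tested.

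Daam1, a formin that acts downstream of Wnt signalling, was at 5.97, 6.89 and 6.04 in wild type and 6.16, 5.64 and 5.85 in the mutant. Wild-type replicate 2 was the high array and set most of the wild-type spread (SD 0.51), and the groups overlapped. The log2 difference was -0.42 (95% interval -1.04 to 0.21, adjusted p = 0.490), and without wild-type replicate 2 it was -0.12.

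**Figure D2:**
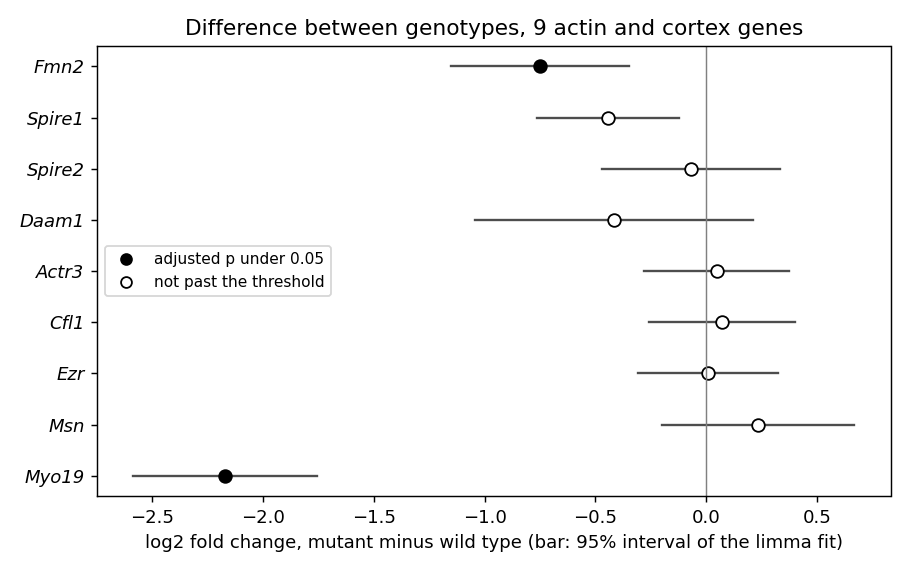
Log2 difference of each of the 9 genes, mutant minus wild type, with the 95% interval of the limma fit (filled: adjusted p under 0.05). Myo19 at -2.17 and Fmn2 at -0.75 are filled, the interval of Spire1 lies below 0 without passing after adjustment, and the other 6 intervals include 0.

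Of 15 other formins and nucleators measured, 1 rose and 1 fell, where 6.4% of all genes rose and 4.04% fell. Fmnl2, a formin of the cell edge, rose from 7.82 ± 0.06 to 8.94 ± 0.15 (log2 difference 1.11, SE 0.14, adjusted p = 0.00298) and passed in all 6 fits without 1 array. Fmn1, the nearest relative of Fmn2, fell from 5.93 ± 0.32 to 5.15 ± 0.09 (-0.78, adjusted p = 0.0431) and passed in 0 of the 6. Vesicles carrying Rab11a and the motor Myo5b organise the cytoplasmic mesh that Fmn2 and the Spire proteins make. A list of small GTPases and vesicle factors held Rab11 genes and also others, such as Rhoa, Rac1, Cdc42, Ran and Arf6. Of its 14 measured genes 2 rose and 0 fell, where 6.4% of all genes rose and 4.04% fell. Rab11fip2, which links Rab11 to Myo5b, was at 5.64, 5.92 and 6.19 in wild type and 8.08, 8.07 and 7.74 in the mutant (2.05, SE 0.19, adjusted p = 0.000737) and passed in all 6 fits. Ran, the GTPase that signals from the chromosomes to the cortex, rose by 0.70 (adjusted p = 0.0401) and passed in 1 of the 6. Rab11a had a log2 difference of -0.19 (adjusted p = 0.622).

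Myo5b itself fell from 8.57 ± 0.08 to 7.92 ± 0.01 (log2 difference -0.66, SE 0.13, adjusted p = 0.0206), and its relative Myo5a from 7.67 ± 0.12 to 6.84 ± 0.09 (-0.83, adjusted p = 0.0109). With Myo1e (-0.78, adjusted p = 0.0181) these were the 3 unconventional myosins, of 22 measured besides Myo19, that fell, and 0 rose. Over all genes 4.04% fell and 6.4% rose. Myo5a passed in 5 of the 6 fits without 1 array, Myo1e in 3 and Myo5b in 1. The list's median was -0.20, against -0.04 for all genes.

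The Arp2/3 core gene Actr3 did not pass. It was at 8.22, 7.96 and 7.94 in wild type and 8.04, 8.14 and 8.08 in the mutant, overlapping values with a log2 difference of 0.05 (95% interval -0.28 to 0.37, limma adjusted p = 0.917). Of 6 measured genes for the smaller subunits that complete the complex, 3 rose and 0 fell, where 6.4% of all genes rose and 4.04% fell. The rises were Arpc1a from 5.91 ± 0.40 to 6.89 ± 0.05 (0.98, adjusted p = 0.0300), Arpc5 from 6.87 ± 0.33 to 7.83 ± 0.34 (0.97, adjusted p = 0.0468) and Arpc4 from 6.98 ± 0.14 to 7.70 ± 0.06 (0.72, adjusted p = 0.0206). These passed in 1, 1 and 2 of the 6 fits without 1 array. Arpc1b, the alternative to Arpc1a in the complex, had a log2 difference of -0.45 (adjusted p = 0.127), Arpc2 -0.17 (0.735) and Arpc5l -0.09 (0.840).

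Of 21 measured factors that switch the Arp2/3 complex on, 4 rose and 2 fell, where 6.4% of all genes rose and 4.04% fell. The largest rise of the 152 measured genes in all lists was that of Abi2. Abi2, a subunit of the WAVE complex, was at 6.97, 6.91 and 7.03 in wild type and 9.66, 9.45 and 9.01 in the mutant (log2 difference 2.40, SE 0.19, 5.29-fold higher, adjusted p = 0.000383). Washc3, of the WASH complex of endosomes, rose by 1.84 (adjusted p = 0.00671), Jmy, which both nucleates filaments and activates Arp2/3, by 1.44 (adjusted p = 0.00348), and cortactin (Cttn), which stabilises branches, by 1.02 (adjusted p = 0.00718), the last of these named after its values were seen. Cyfip2, another WAVE complex subunit, fell from 6.66 ± 0.07 to 5.67 ± 0.16 (-0.99, adjusted p = 0.00578). These 5 genes passed in all 6 fits without 1 array. The WAVE gene Wasf3 fell by 0.97 on the log2 scale (adjusted p = 0.0318) and passed in 1 of the 6. Abi2 and Cyfip2, both genes for WAVE complex subunits, thus differed in opposite directions, and whether their proteins share a complex in these oocytes was not tested.

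Cfl1 did not pass the threshold, at 8.68, 8.61 and 8.93 in wild type and 8.78, 8.80 and 8.85 in the mutant. The groups overlapped, with a log2 difference of 0.07 (95% interval -0.26 to 0.40, limma adjusted p = 0.870). The other cofilin, Cfl2, had a log2 difference of -0.12 (adjusted p = 0.830) and destrin (Dstn) -0.24 (adjusted p = 0.564). Of 28 measured genes of filament turnover, capping and monomer binding, 3 rose and 3 fell, where 6.4% of all genes rose and 4.04% fell. Pdxp, a phosphatase that activates cofilin, rose from 6.28 ± 0.37 to 8.15 ± 0.25 (1.87, SE 0.22, adjusted p = 0.00235), and a further probe set of Pdxp rose by 1.55 (adjusted p = 0.00673). Ssh1, also a cofilin phosphatase, fell by 0.65 on the log2 scale (adjusted p = 0.0450) and Limk1, the kinase that inactivates cofilin, by 0.62 (adjusted p = 0.0452). Twf1, which binds actin monomers, rose by 1.24 (adjusted p = 0.00173), while its second probe set was at 0.72 (adjusted p = 0.155). Cap1, which recycles monomers, rose by 1.15 (adjusted p = 0.0128), and profilin (Pfn1), which feeds monomers to formins, fell by 0.65 (adjusted p = 0.0340). Pdxp and Twf1 passed in all 6 fits without 1 array and Cap1 in 4, and Ssh1, Limk1 and Pfn1 in 0.

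Ezr and Msn overlapped between genotypes. Ezr was at 4.77, 4.80 and 5.01 in wild type and 4.87, 4.92 and 4.81 in the mutant, a log2 difference of 0.01 (95% interval -0.31 to 0.32, limma adjusted p = 0.989). Its level lay just above the receptor-gene level of 4.53. Msn was at 5.44, 4.90 and 5.50 in wild type and 5.47, 5.60 and 5.47 in the mutant (0.23, 95% interval -0.20 to 0.67, adjusted p = 0.602), with wild-type replicate 2 the low array and a difference of 0.04 without it. Radixin (Rdx), the relative of both, was at 11.02 ± 0.14 in wild type and 10.76 ± 0.19 in the mutant (-0.26, adjusted p = 0.451). Of 22 other cortex linker and contractility genes measured, 2 fell and 0 rose, where 4.04% of all genes fell and 6.4% rose. The 2 were the filament crosslinkers Actn4 (-0.86, adjusted p = 0.0168) and Actn1 (-0.86, adjusted p = 0.0257), each passing in 1 of the 6 fits without 1 array. Among 13 actins, tropomyosins and tropomodulins, Tpm4 fell by 0.99 on the log2 scale (adjusted p = 0.0173) and 0 rose, and Tpm4 passed in 2 of the 6.

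**Figure D3:**
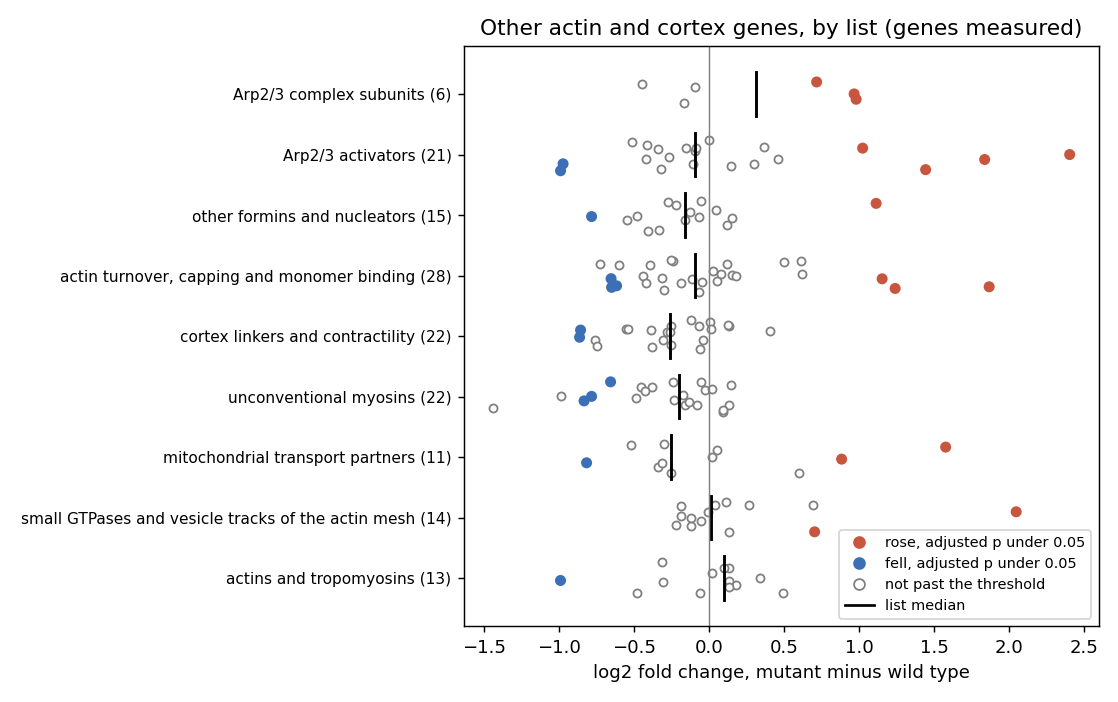
Log2 difference, mutant minus wild type, of the 152 other actin and cortex genes by list (circles: genes, filled where adjusted p was under 0.05; black bars: list medians). Activators of Arp2/3 reach 2.40 with Abi2, and the filled genes among myosins and cortex linkers all lie below 0.

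Together the lists named 161 further genes, of which 152 were measured, 15 rose and 13 fell (18.4%, against 10.4% of all genes), with a median of -0.12. The lists were chosen with earlier results of these data known, so these shares describe the lists and do not test them. The balance of directions moved with the scaling, to 17 higher and 7 lower after cyclic loess and 15 and 19 after quantile normalization. Without mutant replicate 3 it was 16 and 7. It was 9 to 11 higher and 2 to 6 lower without each of the other 5 arrays. The share of 10.4% counts genes of every signal level, dim ones included. When only probe sets above the median level were fitted, 126 of the list genes remained, with 17 higher and 21 lower. In that fit 1278 of all genes passed as lower (10.9%) and 1499 as higher, and the median over all genes was -0.097.

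Likeness to the 2 genes that fell was measured as the root mean square difference of centred log2 values over the 6 arrays, among 11611 genes above the receptor-gene level in both genotypes. For Myo19 the closest were Gm4907 at 0.269, the guidance receptor gene Robo1 at 0.290 and Olfr283 at 0.295. These fell by 1.90, 1.78 and 1.64 on the log2 scale, each less than Myo19. Olfr283 belongs to the receptor genes used to set that level, and its wild-type mean was 6.75. For Fmn2 the closest were Tac2, Mpp5 and Calr4, at 0.0356, 0.0372 and 0.0489. Their log2 differences were -0.77, -0.78 and -0.68, and Calr4 did not pass the threshold (limma adjusted p = 0.0689). In each of them, as in Fmn2, mutant replicate 3 was the lowest array.

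**Figure D4:**
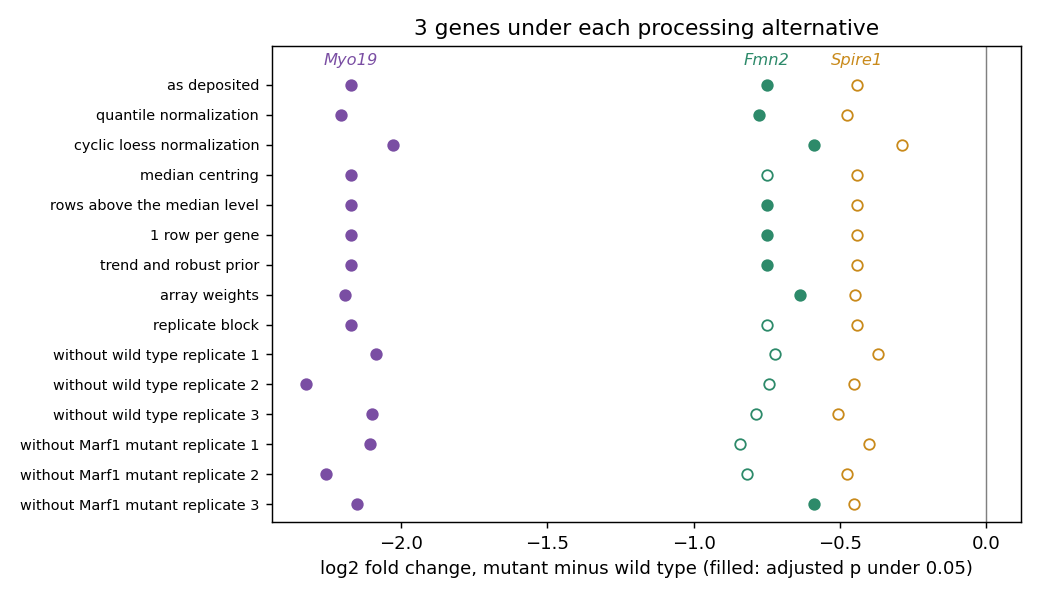
Log2 differences of Myo19, Fmn2 and Spire1 as deposited and under each processing alternative (filled: adjusted p under 0.05). Myo19 is filled in every fit shown, Fmn2 in 7 of the 14 alternatives and Spire1 in 0.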

How the data were processed

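Expression was measured on 6 arrays, 3 per genotype, with groups and replicate numbers taken from the sample titles. The authors deposited 1 log2 expression value for each probe set and array, with 2 decimals. GCOS, Affymetrix Expression Console 1.1 and RMA are named in the submitters' processing notes. The deposited arrays differ in median and spread, and were used as deposited. For the array's genome build, not given in the sources used here, no probe positions were used.

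All 35556 rows were fitted in R 4.3.3 with lmFit and eBayes of limma 3.58.1 (genotype as the only term, two-sided, Benjamini-Hochberg over all rows, threshold 0.05). Of the rows, 21789 named 1 gene, 1621 several and 12146 none here, and 21698 of the first matched RefSeq (GRCm38.p6) by Entrez ID. For the 999 genes with several rows the brightest row on average stood for the gene. Named were all members, up to 3 rises and 3 falls per list, partners fixed by name and the 3 genes most like each member that passed. The members and lists were chosen with earlier results of these data known. Pigw and Znhit3 were examined as neighbours after values had been seen. Promoter sequences came from RefSeq, with 9 of the 10 listed genes used. Entries on the chromosome of Spire1 were left out, so Spire1 was not searched. The number of arrays limits the precision. Alternatives covered normalization, centring, row filters, variance model, array weights, a block on replicate number and each array left out.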

Additional observations from a re-analysis of the deposited data

How the results depend on the processing

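Myo19 kept its direction and its call in all 14 alternatives (log2 difference -2.33 to -2.03). The number of actin and cortex genes that changed stayed at 2 except after median centring, with the replicate block and without 5 of the 6 arrays, where Fmn2 lost its call and the number was 1; over the fits that left out 1 array it ran from 1 to 2. Deviations from the group means correlated at 0.147, -0.099 and 0.027 for replicate numbers 1 to 3, and at -0.216 to 0.183 for unlike numbers. With 3 arrays per group these correlations cannot decide whether the replicate numbers pair the samples. The replicate block gave 1946 changed probe sets, 1 of the 9 genes (Myo19, with Fmn2 missing the threshold at adjusted p = 0.0607) and 19 of the other actin and cortex genes. Leaving out 1 array gave 1368 to 2804 changed probe sets, against 2765 with all arrays, and 11 to 23 of the other actin and cortex genes, against 28. The share of higher calls among probe sets, 61.5% as deposited, was 73.8% after cyclic loess.

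Differences near 0 changed sign. Spire2 was at 0.0069 after cyclic loess, and leaving out 1 array moved it from -0.19 (mutant replicate 3) to 0.048 (mutant replicate 2), through 0.027 (wild-type replicate 1). Actr3 ran from -0.0033 (wild-type replicate 3 left out) to 0.14. Ezr was at -0.0028 after quantile normalization and ran from -0.038 (wild-type replicate 1 left out) to 0.082, through -0.023 and -0.02 (wild-type replicate 2 and mutant replicate 2). None of these passed the threshold, and the cause was not tested. Pigw, added after seeing the data, lost its call in 7 of the 14 alternatives. With 3 arrays per group, small differences such as those of Spire1 and Msn are not resolved, and no background measure came with the values.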
